A study of Mus musculus with 4 samples.

Results

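Platelet-like cells of the mouse lung were described here, selected on their own RNA counts in 2 single-cell libraries, 1 from TNF- and 1 from TNF+ lungs. A cell was included if it had at least 500 UMIs (unique molecular identifiers, each standing for 1 captured RNA molecule) and at most 20% mitochondrial UMIs. It also needed at least 5 UMIs in sum over Ppbp, Gp9, Itga2b, Tubb1 and Gp5, no UMI of the leukocyte gene Ptprc or the endothelial gene Cdh5, and fewer than 20 UMIs over C1qa, C1qb and C1qc of macrophages. The rule found 168 cells among the 8342 of the TNF- lung that passed the limits on UMIs and mitochondrial RNA, and 68 among the 11085 of the TNF+ lung. These 236 cells were taken from 19798 deposited lung cells and 30943 cells in the whole series, and 1 cell in each synovial library met the same rule.

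TNF+ mice carry 1 copy of a human TNF transgene on a C57BL/6 background and develop arthritis and pulmonary vascular disease, and TNF- mice were littermates without it. All mice were female and 4 months old. Lungs of 3 to 5 mice per genotype were pooled, digested with enzymes, treated to lyse red cells and sorted for live cells before 3′ capture, so each genotype is 1 library with no replicate. No p-value or SE can be given for a difference between genotypes, and intervals are 95% intervals for counting error only. The human transgene is not in the mouse reference, so its RNA was not measured. The genotype cannot be told apart from the library.

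Platelets are anucleate fragments released by megakaryocytes, and in mice a share of the megakaryocytes that release them lies in the lung circulation. Platelets make little RNA of their own and carry transcripts received from the megakaryocyte. They adhere to injured vessel walls through glycoprotein receptors, are activated by ADP, thrombin and collagen, and release chemokines, growth factors and clotting proteins from their granules.

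The deeper identity of the cells was read from genes the rule did not use. The 22-gene platelet and megakaryocyte list holds the 5 genes of the rule, and these were set aside. The other 17 genes supplied a median of 6.45% of a cell's UMIs in the TNF- lung (range 0.0574 to 10.9%) and 5.16% in the TNF+ lung (2.0 to 7.85%). A median of 10 of the 17 was detected per TNF- cell (3 to 17) and of 9 per TNF+ cell (5 to 17). Pf4, the chemokine platelet factor 4, was present in every cell, with a median of 14.5 UMIs (1 to 410) in TNF- and 13 (1 to 122) in TNF+ cells. T cells of the same libraries, which should lack platelet RNA, held a mean of 0.187 and 0.503 Pf4 UMIs. Clec1b, the podoplanin receptor CLEC-2, had a median of 4 UMIs (0 to 129) and 3.5 (0 to 46), and was detected in 89.3% and 86.8% of the cells. After each cell was thinned to 500 UMIs, Clec1b was present in 82.7% of TNF- and 80.9% of TNF+ platelet-like cells, against 1 of 914 and 0 of 1427 T cells. A count of 0 among T cells is a limit on cells with a UMI and not on expression.

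Of the genes used for selection, Ppbp, the precursor of the platelet basic protein chemokine, was seen in 99.4% of TNF- and 94.1% of TNF+ cells, with medians of 5 (0 to 306) and 6 (0 to 78) UMIs. Itga2b, the αIIb chain of the fibrinogen receptor, had a median of 4 UMIs in both (0 to 170 and 0 to 27). Gp9, a subunit of the von Willebrand factor receptor, had a median of 2 in both (0 to 88 and 0 to 25). Gp5, a further subunit of that complex, had a median of 1 in both (0 to 72 and 0 to 8). Tubb1, the β1-tubulin of the platelet marginal band, was the sparsest and was found in 38.1% and 32.4% of the cells. At least 3 of these genes were present in 89.9% of TNF- and 86.8% of TNF+ cells, and all 5 in 22.0% and 20.6%. The cells just inside the threshold, with a sum of exactly 5, were 12 and 6 in number, with a median of 11.5 and 6 Pf4 UMIs. Those just outside, with a sum of exactly 4 and every other limit met, were 8 and 7, with 7.5 and 6.

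Most of the selected cells held little nuclear RNA. Malat1, a long RNA kept in the nucleus, had a median of 1 UMI per cell (0 to 9) in 163 of the 168 TNF- cells and of 2 (0 to 15) in the 68 TNF+ cells. It was at 0 in 38.0% and 26.5% of them. T cells held medians of 206 and 183. Among cells under 2000 UMIs, the platelet-like cells were 147 and 59 in number without the 5 TNF- cells described next. Malat1 took 1379 and 2170 CPM (UMIs scaled to a common library total) in them, against 11470 and 10440 in the other lung cells. Cell by cell the gap was smaller. Those other cells held medians of 2 and 3 Malat1 UMIs (0 to 171 and 0 to 156), with 23.6% and 8.41% at 0. Xist, the nuclear RNA of the inactive X chromosome, gave 5 UMIs over the 163 TNF- cells and 11 over the TNF+ cells. Of 18 cell cycle genes, Ccnd3, a G1 cyclin, was the one with at least 20 UMIs, at 179 in TNF- and 46 in TNF+ cells, a log2 ratio of -0.23 (-0.73 to 0.24) with all cells and -0.50 (upper limit -0.02) without the 5, while T cells held a mean of 11.02 and 7.70. The other 17 summed to 19 and 2 UMIs, with no UMI of Top2a and 1 of Mki67 in all. With the 5 cells set aside, the next 5 TNF- cells by depth held 18134, 17976, 10914, 8721 and 5757 UMIs and the deepest TNF+ cell 5946, and none had more than 3 Malat1 UMIs or any of Xist. In the same cells Pf4 ran from 103 to 410 UMIs, and Gata1, the erythroid and megakaryocyte transcription factor, from 1 to 4. The cells are called platelet-like here.

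The other 5 TNF- cells were of another kind. Each held at least 10 UMIs of a 10-gene fibroblast list (15 to 327 UMIs), with 126 to 835 Malat1 UMIs, 4149 to 19976 UMIs in all, and 0.107 to 0.621% of their UMIs from the platelet list. They supplied 60765 of the 268994 UMIs summed over the TNF- cells. No TNF+ cell passed 1 fibroblast UMI. Ratios between genotypes are therefore given with all selected cells and again without these 5, a choice made after the values were seen. In the plot of Malat1 against depth these 5 cells sit with the T cells and the rest lie far below.

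**Figure D1:**
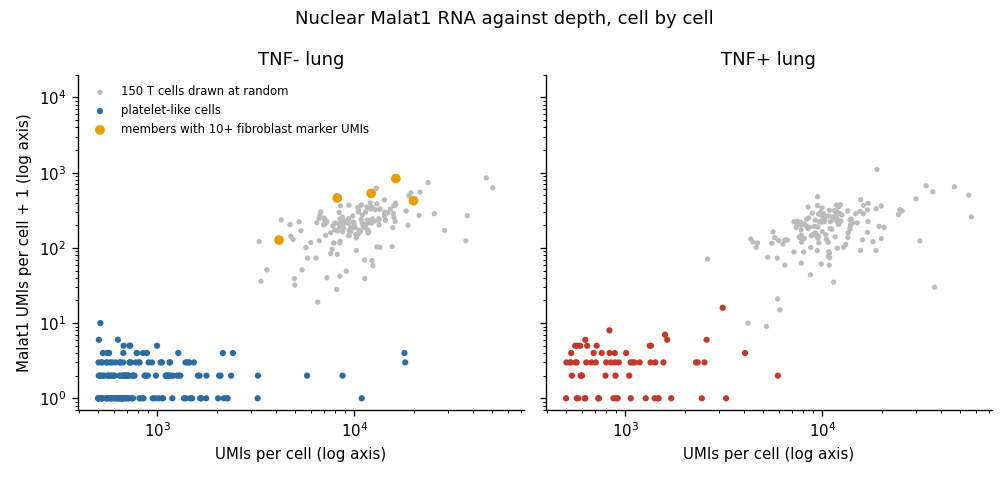
Malat1 UMIs per cell plus 1 against UMIs per cell, both on log axes, for TNF- (left) and TNF+ (right) lungs; coloured points are selected cells, orange points the 5 TNF- cells with at least 10 fibroblast marker UMIs, and grey points 150 T cells drawn at random per library. Apart from the orange cells, the selected cells hold at most 9 (TNF-) or 15 (TNF+) Malat1 UMIs at every depth.

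Promoters of 10 platelet genes were read from RefSeq (build GRCm38.p6), 300 bases each, since GATA and ETS factors (GATA1, FLI1) are the known regulators of this lineage. All 10 of the genes were matched. A GATA motif, spelled AGATAA, was searched on both strands and stood in 4 of the 10 promoters, against 11.2% of 32817 mouse promoters of the same length. An ETS motif, spelled AGGAAG, was searched in the same way and stood in 7 of the 10, against 35.4%. Both stood in the promoters of Pf4 and Gp5, against 4.05% of all. The 3 promoters shown are those with both motifs and that of Itga2b, which has the ETS motif at 2 positions. Capitals mark the motif letters on either strand, and the motifs do not overlap. Such a match is a description of letters and not evidence of a bound factor.
Pf4 promoter, chr5:90772185-90772484, plus strand: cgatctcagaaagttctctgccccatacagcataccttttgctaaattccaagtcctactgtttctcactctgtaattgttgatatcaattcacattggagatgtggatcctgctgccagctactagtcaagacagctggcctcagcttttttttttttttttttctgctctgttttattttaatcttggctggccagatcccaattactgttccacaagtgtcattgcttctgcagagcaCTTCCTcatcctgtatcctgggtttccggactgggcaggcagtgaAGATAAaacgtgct
Gp5 promoter, chr16:30310732-30311031, minus strand: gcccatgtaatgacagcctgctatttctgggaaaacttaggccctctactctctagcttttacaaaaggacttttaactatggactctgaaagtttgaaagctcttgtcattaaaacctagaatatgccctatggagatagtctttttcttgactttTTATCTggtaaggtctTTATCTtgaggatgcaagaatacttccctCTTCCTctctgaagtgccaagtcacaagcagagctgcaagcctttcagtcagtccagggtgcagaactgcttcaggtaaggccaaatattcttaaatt
Itga2b promoter, chr11:102469834-102470133, minus strand: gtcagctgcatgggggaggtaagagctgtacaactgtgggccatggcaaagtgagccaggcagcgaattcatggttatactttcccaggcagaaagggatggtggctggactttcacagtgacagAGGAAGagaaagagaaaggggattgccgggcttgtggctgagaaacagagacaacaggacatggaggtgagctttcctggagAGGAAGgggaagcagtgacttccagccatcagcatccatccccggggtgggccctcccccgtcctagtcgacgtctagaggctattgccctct

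Against all other lung cells, 148 of 883 genes with enough UMIs (16.8%) were at least 8-fold higher in the platelet-like cells of both libraries. The rule used this contrast, so the genes describe the cells and support nothing. Leaving aside the genes of the rule, the highest ratios in the lower library were those of Gp1ba, the von Willebrand factor binding chain (log2 ratio 10.23), its partner Gp1bb (9.82), Treml1, an α-granule membrane receptor (9.48), and Tmem40 (9.27). They were followed by Gp6, the collagen receptor (9.22), Alox12, the platelet 12-lipoxygenase (9.21), and Mpig6b, an inhibitory platelet receptor (9.01). Nrgn, a calmodulin-binding protein (8.92), Clec1b (8.33), Gata1 (8.17) and F5, coagulation factor V (7.84), came next. Gnaz (7.60) and Gchfr (7.55) were also among the highest 15.

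The platelet-like cells were small libraries within each lung. Their median was 723.5 UMIs (501 to 19976) in TNF- and 877 (500 to 5946) in TNF+ lungs, against 8250 and 9719 in the other cells. Genes detected per cell had medians of 351 and 438.5. Cells under 1000 UMIs made up 66.7% of the TNF- and 58.8% of the TNF+ platelet-like cells, but 6.37% and 9.96% of the others. In turn, platelet-like cells were 17.7% of all TNF- and 3.52% of all TNF+ lung cells under 1000 UMIs. Ribosomal protein genes, which encode parts of the ribosome, gave 2.91% and 3.84% of their UMIs, against 10.9% and 12.6% in other cells. Tmsb4x, which encodes the actin-binding peptide thymosin β4, alone gave 7.30% and 9.29%. Without the 5 cells with fibroblast RNA, the TNF- values were 1.66% for ribosomal genes and 9.28% for Tmsb4x.

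The share of platelet-like cells was lower in the TNF+ library. They were 2.01% of the TNF- cells (1.72 to 2.34%) and 0.613% of the TNF+ cells (0.477 to 0.777%), a difference of -1.40 percentage points (Newcombe interval -1.75 to -1.08) and a ratio of 0.305 (0.226 to 0.406). The rule fixed what counts as a platelet-like cell but not the genotype it came from. Without the 5 cells with fibroblast RNA the TNF- share was 1.95% (1.67 to 2.27%) and the ratio 0.314 (0.233 to 0.419). The make-up of the libraries differed as well: endothelium-like cells (at least 2 Cdh5 UMIs, no Ptprc) were 1938 of the 8342 TNF- cells (23.2%) and 137 of the 11085 TNF+ cells (1.24%). With these out of the count the platelet-like shares were 2.62% (2.25 to 3.04%) and 0.621% (0.483 to 0.787%). The part of unequal cell recovery in the share was not tested. The plot of shares by definition shows both shares with the limits moved.

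**Figure D2:**
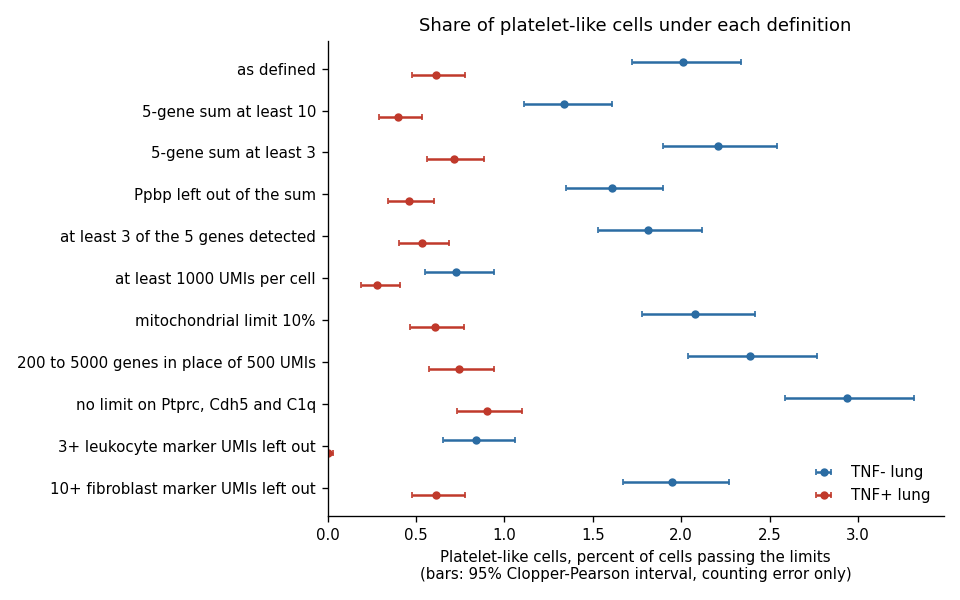
Platelet-like cells as a percentage of lung cells passing the limits, under the rule as defined and 10 other definitions, with TNF- in blue, TNF+ in red and bars for the 95% Clopper-Pearson interval. The TNF+ share is the lower one in every row, and no TNF+ cell was left once cells with at least 3 leukocyte marker UMIs were taken out.

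These shares depend on the 500-UMI limit that the deposited cells already met. Fewer platelets and less RNA per platelet cannot be told apart below that limit, and the handling of blood in each dissection is not given in the sources used here. The order also held among cells above it: with at least 1000 UMIs required, the shares were 0.726% and 0.281%. The rule also left out cells that held platelet RNA beside RNA of other cells. A further 77 TNF- cells (0.923%) and 32 TNF+ cells (0.289%) reached the 5-gene sum but had Ptprc, Cdh5 or C1q RNA. Ptprc was above 0 in 55 and 30 of them. They were deeper, with medians of 8216 and 3238 UMIs and 150 and 18 Malat1 UMIs. At least 5 macrophage marker UMIs were found in 42 of the TNF- and 30 of the TNF+ cells, and at least 5 endothelial marker UMIs in 38 and 3. When these limits were dropped the shares were 2.94% and 0.902%. Whether platelets bound to other cells, or doublets, make up these cells was not tested.

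Levels of platelet genes were next compared between genotypes, as CPM summed over the cells of each library. Over all selected cells, 1987 genes had at least 20 UMIs. Of these, 86 were at least 2-fold higher (4.33%) and 488 at least 2-fold lower (24.6%) in TNF+ cells. Without the 5 cells with fibroblast RNA, 1391 genes remained above the minimum, with 150 higher (10.8%) and 143 lower (10.3%). These percentages are the background for the gene counts that follow, and the median log2 ratio over all genes was -0.21 with all cells and -0.18 without the 5. The platelet list took 8.87% of the UMIs of the 163 TNF- cells and 7.23% of those of the TNF+ cells, so a platelet gene at a log2 ratio near -0.3 kept its place within that list.

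None of the 22 listed platelet and megakaryocyte genes passed 2-fold in either direction, with or without the 5 cells. The list holds the 5 genes of the rule, Ppbp among them, and the selection bears on their counts in both libraries. The other 17 were not used for selection. Pf4 was summed to 4220 TNF- and 1347 TNF+ UMIs, a log2 ratio of 0.08 (-0.01 to 0.17), and without the 5 cells of -0.27 (-0.36 to -0.18). Ppbp had 1924 and 643 UMIs, with log2 ratios of 0.15 (0.02 to 0.28) and -0.21 (-0.34 to -0.08). The 2 settings put these genes on opposite sides of 0, so their sign turns on those 5 cells. Nrgn was lower under both, at -0.11 (-0.21 to -0.01) and -0.46 (-0.57 to -0.36).

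**Figure D3:**
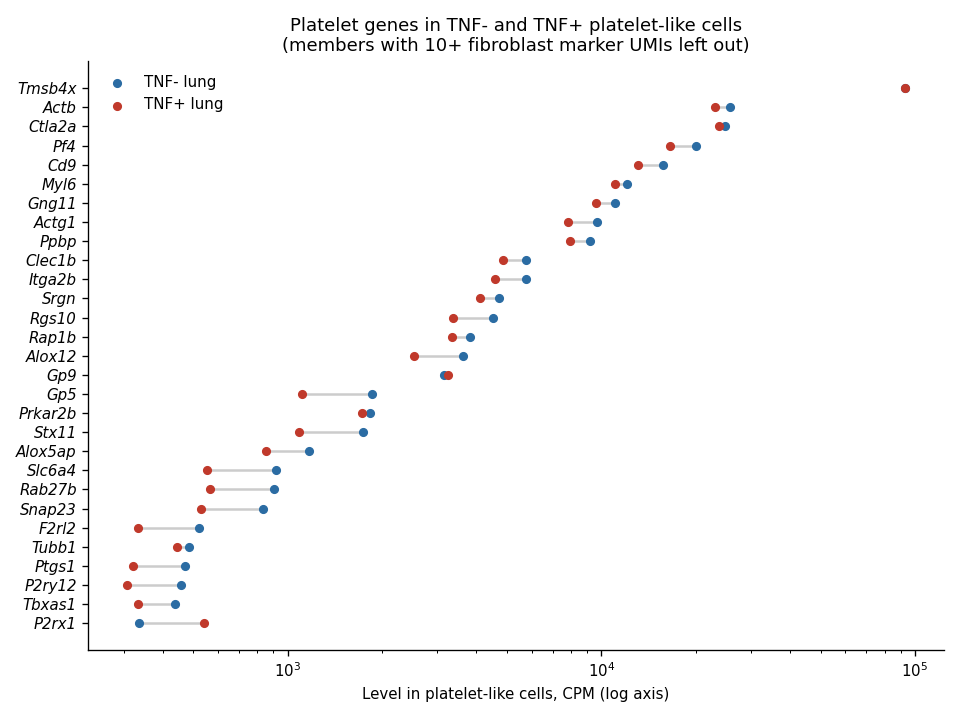
Levels of the 6 marker genes and of the most counted genes of each of 7 platelet gene lists (up to 4 per list), in CPM on a log axis, in TNF- (blue) and TNF+ (red) platelet-like cells, with the 5 cells with fibroblast RNA left out. The red point lies left of the blue one for most genes, with Gp9 and P2rx1 to the right and Tmsb4x level.

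Among 20 adhesion receptors, 18 had at least 20 UMIs. None was 2-fold higher, 1 was 2-fold lower with all cells and 2 without the 5, and the median log2 ratio was 0.07 and -0.28. Cd9, a tetraspanin at the platelet surface, was the most counted, with medians of 11 (2 to 363) and 10.5 (1 to 94) UMIs per cell and a log2 ratio of 0.07 (-0.03 to 0.17), or -0.27 (-0.37 to -0.17) without the 5 cells. The subunits of the von Willebrand factor receptor had unlike ratios, and the difference between them was not tested. Gp9 and Gp5 are genes of the rule, so the selection bears on their counts, and the intervals of Gp1bb and Gp1ba overlap. Without the 5 cells, Gp9 had a log2 ratio of 0.05 (-0.16 to 0.26) and Gp1bb of 0.02 (-0.56 to 0.57), while Gp5 stood at -0.74 (-1.09 to -0.41) and Gp1ba at -0.89 (-1.63 to -0.22). With all cells Gp5 was at -0.39 (-0.74 to -0.06) and Gp1ba at -0.52 (-1.26 to 0.15). Gp5 was detected in nearly equal shares of the cells, 59.5% and 58.8%, and its highest cell held 72 UMIs in TNF- and 8 in TNF+ lungs. Cd36, the thrombospondin receptor, was 2-fold lower at 22 against 2 UMIs without the 5 cells (log2 ratio -2.10, -5.23 to -0.07) and at -1.91 (-5.04 to 0.09) with all cells. The other receptor past 2-fold without the 5 cells was Selp, the P-selectin of α-granules, at -1.28 (-3.27 to 0.25) on 25 against 4 UMIs.

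Of 15 agonist and cytokine receptors only 5 reached 20 UMIs. P2ry1, which starts the shape change, fell from 42 TNF- UMIs to 3 TNF+ UMIs, at a log2 ratio of -2.08 (-4.41 to -0.43) with all cells and -2.45 (-4.78 to -0.80) without the 5. P2ry12, the other ADP receptor and the target of antiplatelet drugs, had 98 and 25 UMIs, at -0.24 (-0.94 to 0.41) and -0.57 (-1.26 to 0.08). The intervals of both overlap, and the difference between them was not tested. P2rx1, an ATP-gated channel, went the other way with 70 and 44 UMIs, at 1.06 (0.48 to 1.62) and 0.69 (0.11 to 1.26), so it passed 2-fold only with all cells. F2rl2, which encodes PAR3, a thrombin-cleaved receptor of mouse platelets, had 109 and 27 UMIs. F2rl3, which encodes PAR4, the receptor that signals for thrombin there, had 2 UMIs and 0.

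Of 19 genes of α-granule cargo and biogenesis, 15 passed the minimum with all cells and 14 without the 5. None was 2-fold higher, and 2 and 1 were 2-fold lower, with medians of -0.01 and -0.26. Ctla2a, a cathepsin inhibitor-like gene, was the most counted, at a median of 21 UMIs per cell (2 to 524) in TNF- and 20 (2 to 194) in TNF+ lungs and a log2 ratio of 0.29 (0.22 to 0.37), or -0.06 (-0.13 to 0.02) without the 5 cells. Thbs1, thrombospondin, had 896 and 260 UMIs and a ratio of -0.05 (-0.26 to 0.15), or -0.30 (-0.51 to -0.10). Srgn, the proteoglycan that packs Pf4, stood at 0.15 (-0.03 to 0.33) and -0.20 (-0.38 to -0.02). T cells held more Srgn per cell than the platelet-like cells but were deeper, with medians of 9682 and 10091 UMIs against 723.5 and 877. With each cell thinned to 500 UMIs, Srgn was present in 85.7% and 80.9% of platelet-like cells and in 25.5% and 30.7% of T cells. Serpine2, protease nexin-1, was 2-fold lower under both settings, at -1.77 (-3.13 to -0.66) and -1.42 (-2.81 to -0.26), with 48 UMIs in the 163 TNF- cells and 7 in the TNF+ cells. With a 5-gene sum of at least 3 in place of 5 its sign turned, to 1.72 (1.28 to 2.15). That setting lets in deep cells, up to 162014 UMIs in TNF- and 44992 in TNF+ lungs among those with a sum of exactly 4, and the cause was not tested. Sparc was 2-fold lower only with all cells, since 9 of its 85 TNF- UMIs came from the 163.

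Among 15 genes of dense granules and secretion, 8 passed the minimum, none was past 2-fold with all cells and 1 was 2-fold lower without the 5, and the medians were -0.33 and -0.66. The 4 most counted genes had like ratios without the 5 cells. These were Stx11, a fusion syntaxin, at -0.68 (-1.04 to -0.34), Slc6a4, the serotonin transporter, at -0.72 (-1.23 to -0.25), Rab27b, a granule GTPase, at -0.67 (-1.17 to -0.20), and Snap23, a fusion protein, at -0.66 (-1.17 to -0.17). With all cells they ranged from -0.36 to -0.32, with intervals that reached 0. Unc13d, which primes granules for fusion, was the gene past 2-fold, at -1.19 (-2.59 to -0.02) on 41 against 7 UMIs.

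All 25 genes of the cytoskeleton and integrin linkage passed the minimum. None was 2-fold higher and 2 were 2-fold lower in each setting, and the medians were -0.02 and -0.35. Tmsb4x stood at 0.35 with all cells and 0.00 (interval from -0.04) without the 5. Zyx, a focal adhesion protein, Tpm4, a tropomyosin, and Parvb, an integrin-linked kinase partner, stood at -0.52, -0.48 and -0.58 without the 5 cells, with intervals below 0. Actn1, the α-actinin that crosslinks actin in platelets, fell from 80 UMIs in TNF- to 10 in TNF+ cells, at -1.27 (-2.38 to -0.32) and -1.60 (-2.72 to -0.65). With a 5-gene sum of at least 3 it turned to 2.12 (1.72 to 2.54). Tuba8 was the other gene past 2-fold, on 21 against 2 UMIs without the 5 cells, with an interval that reached 0.

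Of 21 intracellular signalling genes 17 passed the minimum, none was past 2-fold with all cells, and the medians were 0.13 and -0.20. Without the 5 cells Pde3a, a cyclic nucleotide phosphodiesterase, was 2-fold lower, with an interval that held 0. Gng11, a G-protein γ subunit, had 2339 and 780 UMIs, at 0.15 (0.03 to 0.26) and -0.20 (-0.32 to -0.08). Fcer1g, the Fc receptor γ chain that signals for Gp6, stood at 0.65 (0.32 to 0.98) and 0.31 (-0.03 to 0.63). T cells of the TNF+ lung held a mean of 3.35 Fcer1g UMIs against 1.71 in the platelet-like cells, but were deeper, with medians of 10091 and 877 UMIs. All 5 of the 8 eicosanoid genes that passed the minimum lay within 2-fold, with medians of -0.10 and -0.46. Alox12 was the most counted, with 759 and 205 UMIs, at -0.16 (-0.39 to 0.07) and -0.52 (-0.75 to -0.29). Ptgs1, the cyclooxygenase that aspirin blocks, had 102 and 26 UMIs, at -0.24 (-0.92 to 0.39) and -0.55 (-1.24 to 0.08).

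Transcription factors of the megakaryocyte lineage were rare. Nfe2, needed for platelet release, had 110 and 38 UMIs, at 0.20 (-0.38 to 0.74) and -0.17 (-0.74 to 0.37). Fli1, an ETS factor, had 115 and 20 UMIs, at -0.79 (-1.56 to -0.10) and -1.11 (-1.88 to -0.42), although T cells held a mean of 4.96 and 5.00 Fli1 UMIs. Gata2, of early megakaryocytes, had 44 and 7, at -0.92 (-2.32 to 0.24) and -1.26 (-2.66 to -0.09). Gata1 had 43 and 9, at -0.53 (-1.75 to 0.53) and -0.90 (-2.12 to 0.16). Runx1 was 2-fold higher on 13 against 9 UMIs, at 1.20 (-0.21 to 2.54) and 1.07 (-0.38 to 2.48). Meis1 was 2-fold lower with all cells and had 4 UMIs in the 163 TNF- cells. Of 16 genes in the list 10 passed the minimum with all cells and 8 without the 5, with a median of -0.26 in both.

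**Figure D4:**
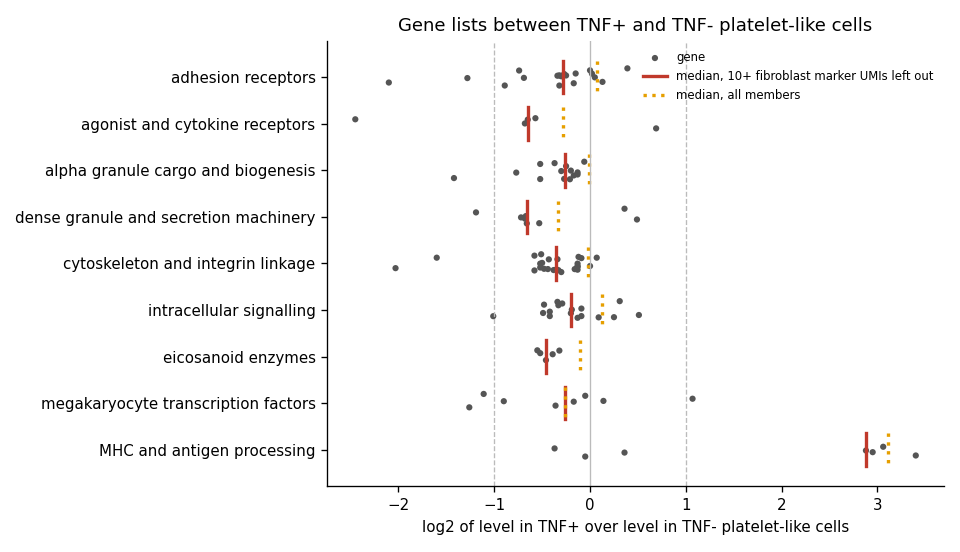
Log2 ratio of the level in TNF+ over TNF- platelet-like cells for each gene of 9 lists with at least 20 UMIs (points, the 5 cells with fibroblast RNA left out), with the list median without these cells (red) and with all cells (orange, dotted); dashed lines mark 2-fold. Points of the platelet lists lie mostly between -1 and 0, and 4 points of the MHC list lie near 3.

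A shift between the settings ran through the platelet lists, so genes with far less RNA in T cells were looked at by themselves. There were 134 genes with at least 4 times as many UMIs per platelet-like cell as per T cell in both libraries, without the 5 cells. Their median log2 ratio was -0.32 (quartiles -0.66 and -0.12), against -0.18 over all 1391 genes. None was 2-fold higher and 11 (8.21%) were 2-fold lower, against 10.3% of all genes. Besides Serpine2, Gata2 and Tuba8, the 11 held Sh3bgrl2, an SH3-binding protein, at -1.37 (-2.20 to -0.63) on 113 against 17 UMIs, and Mest at -2.89 (-5.98 to -0.93) on 38 against 2 UMIs. Selp was also among them. These genes were picked out after their values were seen. Lung cells other than T cells played no part in the choice. For Gata2, the 1938 endothelium-like cells of the TNF- lung held 4724 of their 17512936 UMIs, against 43 of 208229 in the 163 platelet-like cells. The 12-gene basophil and mast cell list was mostly Gata2 in both (4724 of 4916 and 43 of 45 UMIs). Scaled to depth, that list took 281 and 216 CPM.

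The lowest ratios without the 5 cells among genes with at least 50 UMIs were those of the globin Hbb-bs (-2.37, -3.23 to -1.61), Dnajb4, a heat shock protein partner (-2.34, -4.27 to -0.90), Mapk14, the p38 kinase (-1.90, -3.59 to -0.58), and Rtf1, a transcription elongation factor (-1.81, -3.50 to -0.48). Then followed Actn1, Hbb-bt (-1.53), Rab2a (-1.52), Tsc22d3 (-1.51), Serpine2 and Sh3bgrl2. For several of these the TNF- T cells held more per cell than the platelet-like cells, with means of 1.28 against 0.294 for Mapk14, 1.60 against 0.276 for Rtf1, 2.68 against 0.479 for Actn1, 3.12 against 0.362 for Rab2a and 2.37 against 0.270 for Tsc22d3. The T cells were deeper, with a median of 9682 UMIs against 717. Of the 143 genes at least 2-fold lower, 99 (69.2%) had at least as many UMIs per T cell as per platelet-like cell of the TNF- lung, against 74.5% of all 1391. With all cells the lowest 10 were a different set, led by Col3a1 (-5.57) and including Prkg1, Plxdc2, Prex2, Limch1, Zbtb20, Hhip, Nfib and Aspn, and these genes had 0 to 9 UMIs each in the 163 TNF- cells.

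The genes with the highest ratios in TNF+ platelet-like cells were mostly known from other lineages. Without the 5 cells, the highest were Cxcl13, a B cell chemokine, at 0 against 51 UMIs (log2 ratio at least 5.45 with the TNF- sum set to 3 UMIs), the immunoglobulin genes Jchain (5.10, 4.07 to 6.35), Igha (5.02, 4.28 to 5.85) and Igkc (4.20, 3.82 to 4.62), and Apoe (4.77, 3.88 to 5.81). H2-Eb1 (3.06) and Cd74 (2.88) of MHC class II, the alveolar macrophage gene Chil3 (2.86), the surfactant gene Sftpa1 (1.89) and Cmss1 (1.63) completed the 10. With all cells Ly6e took the place of Cmss1. In the MHC list 4 of 7 measured genes were 2-fold higher in both settings (Cd74, H2-Aa, H2-Ab1 and H2-Eb1), while B2m of class I had a log2 ratio of 0.25 with all cells and -0.05 (-0.28 to 0.18) without the 5.

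Each of these 10 genes, and each of the 4 MHC genes, had on average more UMIs per T cell than per platelet-like cell of the TNF+ lung, and the part of free RNA in these values was not tested. For Cd74 the means were 1.85 per platelet-like cell and 12.8 per T cell, for Igkc 6.44 and 31.0, for Igha 2.97 and 18.7, and for Cxcl13 0.750 and 2.13. The medians lay closer, at 2 and 2 for Cd74, 1 and 1 for Jchain, 6 and 8 for Igkc and 3 and 5 for Igha. Igkc was found in 98.5% of TNF+ platelet-like cells, with 0 to 18 UMIs and a median of 6, and in 31.5% of TNF- ones, with 0 to 2. Of the 150 genes at least 2-fold higher, 148 (98.7%) had at least as many UMIs per T cell, against 80.5% of all 1391 genes. The other 2 were Mgmt and Sugp2, at 12 and 16 TNF+ UMIs. The T cells were deeper, with a median of 10091 UMIs against 877. After thinning to 500 UMIs, Igkc was present in 89.7% of TNF+ platelet-like cells and 36.9% of T cells, and Cd74 in 57.4% and 15.2%.

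Complement genes, the subject of the study, were sparse. Only 7 of 21 reached 20 UMIs with all cells, of which C1qa, C1qb and C3 were 2-fold higher in TNF+ cells and 2 were 2-fold lower, Serping1 among them. Of the 45 TNF- UMIs of Serping1, 3 came from the 163 cells. C1qb had 1 UMI in TNF- and 28 in TNF+ cells, C1qa 2 and 20, C1qc 3 and 12, and C3 8 and 15. The means in TNF+ platelet-like cells, 0.412 for C1qb, 0.294 for C1qa and 0.221 for C3, were below those in T cells (1.42, 1.81 and 1.06). These T cells were deeper, with a median of 10091 UMIs against 877. After thinning to 500 UMIs, C3 was present in 11.8% of TNF+ platelet-like cells and 2.24% of T cells. The rule itself capped the C1q sum, though that limit removed no cell beyond the others. Cd59a, which blocks the terminal complex at the cell surface, was the one regulator with more UMIs than in T cells in both libraries without the 5 cells. It had 20 and 9 UMIs and a log2 ratio of 0.58 (-0.74 to 1.78). It was found in 10.1% and 10.3% of the cells. Of 18 TNF receptor and NF-κB target genes, only Nfkb1 reached 20 UMIs with all cells, at a log2 ratio of -0.36 (-2.39 to 1.26). Of 16 interferon-stimulated genes only Ifitm2 and Ifitm3 did, at 0.39 (-0.30 to 1.04) and -0.39 (-0.98 to 0.17).

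Markers of other lineages were counted cell by cell. The macrophage list had a median of 3 UMIs per TNF- and 9 per TNF+ platelet-like cell, and of 3 and 12 per T cell. All 68 TNF+ platelet-like cells had at least 3 such UMIs, as did 99.4% of T cells. The B and plasma cell list had medians of 0 and 7 in platelet-like cells and 2 and 12 in T cells, and the epithelium list 4 and 6 against 7 and 8. T cells were deeper. Scaled to depth, the macrophage list took 3022 and 8795 CPM in platelet-like cells, against 846 and 4080 in T cells. The B and plasma cell list took 372 and 6945 against 538 and 3686, and the epithelium list 2665 and 5033 against 2213 and 3559. T cell, NK cell, dendritic cell and neutrophil lists had medians of 0 in the platelet-like cells of both libraries. The part of free RNA in the gene ratios was not tested.

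**Figure D5:**
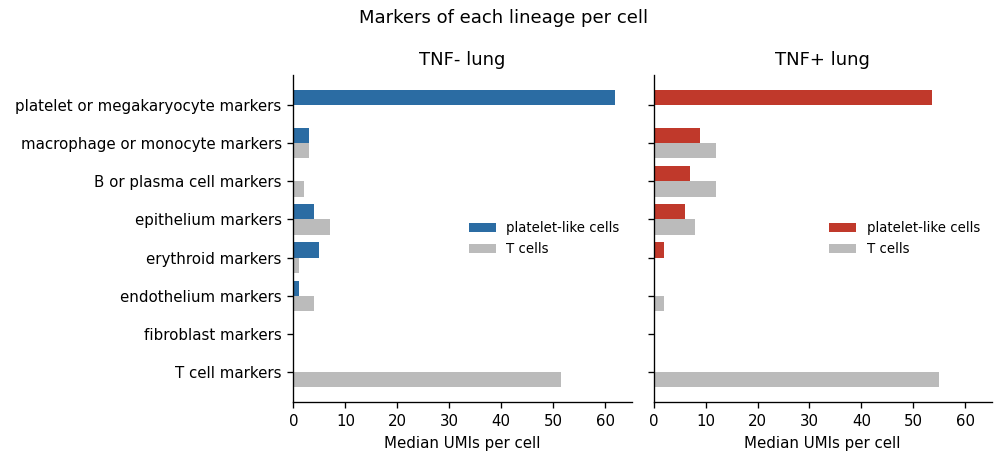
Median UMIs per cell of 8 marker lists in platelet-like cells (coloured) and T cells (grey) of the TNF- (left) and TNF+ (right) lung. The macrophage and B cell lists stand at 9 and 7 UMIs in TNF+ platelet-like cells and at 12 and 12 in TNF+ T cells, while the platelet list is at 0 in T cells. UMIs are not scaled to depth, and T cells were the deeper cells.

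Erythroid RNA did not follow that pattern. Hba-a1, an α-globin gene, had 805 UMIs in TNF- and 155 in TNF+ platelet-like cells, and was found in 81.0% and 57.4% of them against 21.1% and 13.03% of T cells. After thinning these shares were 69.1% and 39.7%, against 1.20% and 0.841%. Hbb-bs, a β-globin gene, had 203 and 15 UMIs. The ratio of Hba-a1 to Hbb-bs UMIs was 3.97 (3.40 to 4.65) and 10.3 (6.07 to 18.9) in platelet-like cells, and 0.465 (0.409 to 0.528) and 0.364 (0.313 to 0.422) in T cells, so the globin RNA of the platelet-like cells did not have the proportions of that in T cells. Without the 3 TNF- cells and the 1 TNF+ cell that held at least 50 erythroid UMIs, the ratio was 7.48 (5.97 to 9.47) and 7.40 (4.30 to 13.7). Hba-a1 and Hba-a2 are nearly identical copies and their split is uncertain.

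The same 3 TNF- cells held 116 of the 203 Hbb-bs UMIs and left 87, against 15 in the TNF+ cells. All 116 lay in 1 of the 3, a cell of 688 UMIs of which 270 were erythroid. Without the cells of at least 50 erythroid UMIs, the log2 ratio of Hbb-bs was -0.83 (-1.73 to -0.03), and -1.18 (-2.08 to -0.37) when the 5 cells with fibroblast RNA were left out too. Leaving these cells out was chosen after the values were seen.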

How the data were processed

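Raw UMI counts from 10x 3′ libraries, for called cells alone, were deposited by the authors, made with Cell Ranger 7.0.1 per the submitters' processing notes and a mouse reference of build mm10. Counts of 32285 genes were read from both lung libraries, of 1 library per group. The rule for the cells, the gene lists and the 10 UMI limit on fibroblast markers were chosen with earlier results of these data known. No doublet caller was run. The lung libraries shared 21 cell barcodes, none of a selected cell. UMIs were summed per library and divided by the total to give CPM. Shares carry Clopper-Pearson intervals, differences Newcombe intervals and log2 ratios conditional binomial intervals, all at 95%. Genes needed 20 UMIs over both libraries. Where either sum was 0, sums under 3 UMIs were raised to a floor of 3. T cells (at least 3 UMIs of Cd3d, Cd3e and Cd3g, no Cdh5) gave the background. Cells were thinned to 500 UMIs with seed 1.

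Genes named were the 6 markers, the 4 most counted genes of each list and those past 2-fold with an interval off 0, the 10 highest and 10 lowest ratios among genes with 50 UMIs (mitochondrial, ribosomal and unnamed models left out), and the 15 highest over other cells. Some genes that this rule names are not reported here. Others were chosen after their values were seen. Ratios and their intervals were tested on simulated counts, drawn gene by gene around the summed TNF- profile. No cells were simulated, so spread between cells was not part of that test. Python 3.11.15, numpy 2.4.6, scipy 1.17.1, pandas 2.3.3 and matplotlib 3.10.9 were used.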

Additional observations from a re-analysis of the deposited data

How the results depend on the processing

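No paired analysis was possible because each genotype is 1 library. The TNF- and TNF+ shares were 1.34% and 0.397% with a 5-gene sum of at least 10, 1.61% and 0.460% without Ppbp in the sum, 0.726% and 0.281% at 1000 UMIs or more, and 2.94% and 0.902% with no limit on Ptprc, Cdh5 and C1q. The TNF- share was 2.39% with 200 to 5000 genes in place of 500 UMIs. The ratio of shares ran from 0.286 to 0.387, except that leaving out cells with 3 or more UMIs of T, B, neutrophil or macrophage markers left 0.839% of TNF- and 0 TNF+ cells, a ratio of 0, with no gene ratio to compute.

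The main counts of genes 2-fold higher and lower were 86 (4.33%) and 488 (24.6%) of 1987. The number of genes above the minimum changes with the setting, so the counts that follow are not shares. Higher counts were 485 of 4006 genes (sum of at least 3) and 5869, 233 and 30 (minimum of 1, 10 and 50 UMIs). They were 299 (mean over cells), 541 (no limit on Ptprc, Cdh5 and C1q) and 150 of 1391 (without the 5 cells). With a minimum of 1 UMI, a gene seen in 1 library alone with at most 3 UMIs has both sums set to 3. The smaller TNF+ total then counts it as 2-fold higher whichever library held it, so 5869 is no measure of direction. Lower counts were 225 of 1390 genes (sum of at least 10), 311 (no Ppbp) and 1122, 907 and 111 (minimum of 1, 10 and 50). They were 85 (thinned), 290 (mean over cells), 143 of 1391 (without the 5 cells), 106 (without cells of 5000 UMIs or more) and 1952 (no limit on Ptprc, Cdh5 and C1q). The count over other cells was 74 with no such limit.

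List medians that moved were, for α-granule genes, -0.20 (sum of 10), 0.29 (sum of 3), -0.22 (thinned), -0.25 (mean over cells), -0.26 (without the 5 cells) and -0.19 (under 5000 UMIs). For the cytoskeleton they were 0.26 (sum of 3), 0.22 (1000 UMIs), -0.31 (thinned), -0.32 (mean over cells), -0.35 (without the 5) and -0.17 (under 5000). For signalling they were 0.23, 0.35, -0.16, -0.30, -0.20 and -0.16 under the same settings, and 0.26 with median-of-ratios scaling. For eicosanoid enzymes they were 0.08 (sum of 3), -0.56 (mean over cells) and -0.46 (without the 5). Single genes changed sign with a sum of 3 (Sftpa1 -0.60, Actn1 2.12, Serpine2 1.72), without Ppbp (Hbb-bt 0.34) and with no limit on Ptprc, Cdh5 and C1q (Chil3 -0.58, Sftpa1 -3.18, Ly6e -0.31, Mapk14 0.02). The cause was not tested. With 163 and 68 cells, genes under 20 UMIs could not be compared.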

Other observations

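Pf4 was not limited to the platelet-like cells. It was detected in 11.96% of all TNF- and 26.29% of all TNF+ lung cells that passed the limits, and the highest count in the TNF+ lung, 695 UMIs, lay outside the platelet-like cells, whose highest was 122. The 3 TNF+ cells left out for C1q RNA of 20 UMIs or more had a median of 249 Pf4 UMIs and 24317 to 39152 UMIs in all.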
